A study of Mus musculus with 9 samples.

Results

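T cell costimulatory and checkpoint ligands are the surface molecules with which a macrophage raises or restrains the T cell that it meets. The transcripts of 10 such genes, Cd86, Cd80, Icosl, Cd48, Cd40, Tnfsf9, Cd274, Cd276, Vsir and Havcr2, were followed in macrophages with and without an intact C/EBPδ. They were picked by name from the costimulatory and checkpoint families, out of 55487 gene identifiers of which 14312 were abundant enough to test, and all 10 passed that filter on low counts. Cd86 and Cd48 passed it through the wild-type libraries alone. The list was chosen by a reading of the wild-type comparisons that had shown Cd86 and Cd48 near zero in both edited lines, so the members' differences from wild-type are given below as a description, with no p-value.

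The cells were RAW264.7 macrophages, a mouse line transformed by Abelson leukaemia virus, grown without any stimulus. Wild-type cells carried an unedited Cebpd, the gene of the transcription factor C/EBPδ. ΔTAD cells had lost its transactivation domain through CRISPR/Cas9 editing at the endogenous locus, which is meant to leave the DNA-binding part expressed from its own promoter. Knock-out cells were clones of the same editing in which the deletion had shifted the reading frame. All edited cells had passed through transfection of Cas9 and guide plasmids, sorting of single cells and puromycin selection, which is not stated for wild-type cells. For its LPS experiments the paper names individual wild-type clones too, without saying how they were obtained. Each genotype gave 3 RNA-seq libraries. The series speaks of 3 independent clones without saying of which genotype or whether each library is 1 clone, so p-values measure the spread between these libraries, and the effect of a genotype cannot be told apart from that of the clones picked. No clone in which C/EBPδ had been restored was analysed here.

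A T cell that has bound antigen needs a costimulatory signal as well, and CD80 and CD86 give it through CD28 or withhold it through CTLA4. ICOSL, CD48 and the TNF family ligand TNFSF9 add to that signal through ICOS, the CD2 family and TNFRSF9, while CD40 receives the T cell's own CD40 ligand and licenses the presenting cell. CD274, also known as PD-L1, CD276 and VSIR restrain T cells, and HAVCR2, also known as TIM-3, is an inhibitory receptor that macrophages carry as well. In macrophages many of these genes are induced through NF-κB and interferon signalling, and C/EBP factors bind promoters through a palindrome with the core TTGCGCAA.

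The depth was 16113306 to 20981829 counts on genes per library. Levels are given as CPM, the gene's counts relative to the TMM-scaled library total, and 3 counts, taken as the floor of detection, equal 0.143 to 0.21 CPM. ΔTAD replicate 1 stood apart, with 11.0% of its counts on 1 ribosomal RNA gene against 0.303% to 1.16% in the other libraries, and where a call of a named member or pathway gene was lost without it, this is said. The targeted gene is no check of the labels, because the deletion leaves most of its transcript in place: Cebpd was at 6.51 ± 0.674 CPM (SD, n = 3 here and below) in wild-type cells, with 5.44 ± 0.201 and 5.44 ± 0.669 in knock-out and ΔTAD cells. The macrophage genes Lyz2, Cd68, Cd14 and Csf1r were abundant, while Mertk did not exceed 2 counts and Mrc1 did not exceed 8 in any library.

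Promoter sequence was at hand for 7 of the 10 members, from RefSeq on GRCm38.p6, each as 250 bases before and 50 after the start site. There were no entries for Cd86, Cd40 and Tnfsf9. The palindrome TTGCGCAA was searched on both strands together with the looser TTNNGNAA and with the CCAAT box, the site of NF-Y. Of all 32817 promoters of this length, 0.183% held TTGCGCAA, 40.7% held TTNNGNAA and 37.4% held CCAAT. TTGCGCAA was found in 0 of the 7, TTNNGNAA in 1 (Cd274) and CCAAT in 2 (Icosl and Cd276), and TTNNGNAA contains every match of TTGCGCAA. Upstream stretches of 4 members are shown 5′ to 3′ on the gene's own strand, Cd48 and Icosl because they were low in both edited lines, Vsir because it was high in both, and Cd274 because it carries the looser C/EBP letters yet sat at about the same level in all 3 genotypes. Capitals mark the matches, and annotated exon bases of Icosl were left out. Of the 250 bases shown, 185 for Cd274 and 239 for Cd48 lie in annotated exons of other genes.
Cd48, chr1:171681742-171681991, plus strand: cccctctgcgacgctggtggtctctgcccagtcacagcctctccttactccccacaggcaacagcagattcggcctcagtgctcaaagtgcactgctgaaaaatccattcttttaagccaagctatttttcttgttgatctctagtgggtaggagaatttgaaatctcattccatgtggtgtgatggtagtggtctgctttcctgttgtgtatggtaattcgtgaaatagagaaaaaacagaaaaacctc
Icosl, chr10:78069118-78069301, plus strand: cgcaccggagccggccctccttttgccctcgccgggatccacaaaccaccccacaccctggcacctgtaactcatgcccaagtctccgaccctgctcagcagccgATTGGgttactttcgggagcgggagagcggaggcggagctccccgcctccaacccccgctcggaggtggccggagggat
Vsir, chr10:60346601-60346850, plus strand: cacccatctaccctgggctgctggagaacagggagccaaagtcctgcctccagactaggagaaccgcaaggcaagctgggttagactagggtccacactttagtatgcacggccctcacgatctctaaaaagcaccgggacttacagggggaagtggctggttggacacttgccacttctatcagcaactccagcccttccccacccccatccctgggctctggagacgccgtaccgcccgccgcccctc
Cd274, chr19:29367188-29367437, plus strand: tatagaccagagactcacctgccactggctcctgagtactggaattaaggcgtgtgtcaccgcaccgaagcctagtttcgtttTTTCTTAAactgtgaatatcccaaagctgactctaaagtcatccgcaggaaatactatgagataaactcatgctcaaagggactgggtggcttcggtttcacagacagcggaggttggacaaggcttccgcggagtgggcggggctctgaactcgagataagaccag
In Cd274 the capitals are a match of TTNNGNAA on the opposite strand, whose leftmost base lies at -167 from the start site, and in Icosl they are a CCAAT box on the opposite strand at -145. A second CCAAT box of Icosl at -39 falls in the exon that is not shown, and Cd276 held one at -175 and one at -39. A match is a run of letters and says nothing of binding, and the stretches of Cd48 and Vsir hold none of the motifs.

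Of the CD28 ligands, Cd86 was lost from both edited lines and Cd80 was kept at a lower level. Cd86 (ENSMUSG00000022901, chr16:36603869-36666081, minus strand) stood at 6.73, 6.14 and 5.63 CPM in the 3 libraries of wild-type cells, 334 counts in all. It had 0 counts in each of the 3 knock-out and each of the 3 ΔTAD libraries. The groups did not overlap, and with 0 counts set to the floor of 3 per library the knock-out level of Cd86 was at least 36.3-fold lower than that of wild-type and the ΔTAD level at least 37.2-fold lower. A count of 0 allows up to 3 counts per library by counting error alone, so a trace below that level was not detectable at this depth. Knock-out and ΔTAD cannot be compared, since both were at 0. Of the 14312 genes tested, 51 were at or under 3 counts in all 6 edited libraries and 3, Cd86 included, were at 0 in all 6.

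Cd80 (ENSMUSG00000075122, chr16:38455561-38496335, plus strand), which shares CD28 and CTLA4 as receptors with Cd86, was at 33.6, 35.0 and 34.8 CPM in wild-type libraries. The knock-out libraries had 28.9, 25.6 and 28.8 CPM and the ΔTAD libraries 23.5, 20.3 and 23.4 CPM. All 3 groups were apart from each other, in the order wild-type, knock-out, ΔTAD. The log2 fold change against wild-type was -0.31 (SE 0.0658) in knock-out and -0.63 (SE 0.0676) in ΔTAD. Directly compared, Cd80 was higher in knock-out than in ΔTAD macrophages by 0.32 on the log2 scale (SE 0.0697, edgeR adjusted p = 0.000683), though without ΔTAD replicate 2 the difference was 0.24 with an adjusted p of 0.0126 (edgeR).

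Icosl (ENSMUSG00000000732, chr10:78069302-78083913, plus strand), the ligand of ICOS, had 78, 93 and 87 counts in wild-type libraries, or 3.89, 5.38 and 5.27 CPM. It had 34, 18 and 35 counts in knock-out and 29, 38 and 32 counts in ΔTAD libraries, at most 2.03 CPM. Both edited groups lay below the lowest wild-type library and overlapped each other. The log2 fold changes against wild-type were -1.55 (SE 0.203) in knock-out and -1.44 (SE 0.198) in ΔTAD. The difference between the edited lines, -0.11 (SE 0.244), did not pass the test (edgeR adjusted p = 0.736), and at these counts a difference of that size was not detectable.

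**Figure D1:**
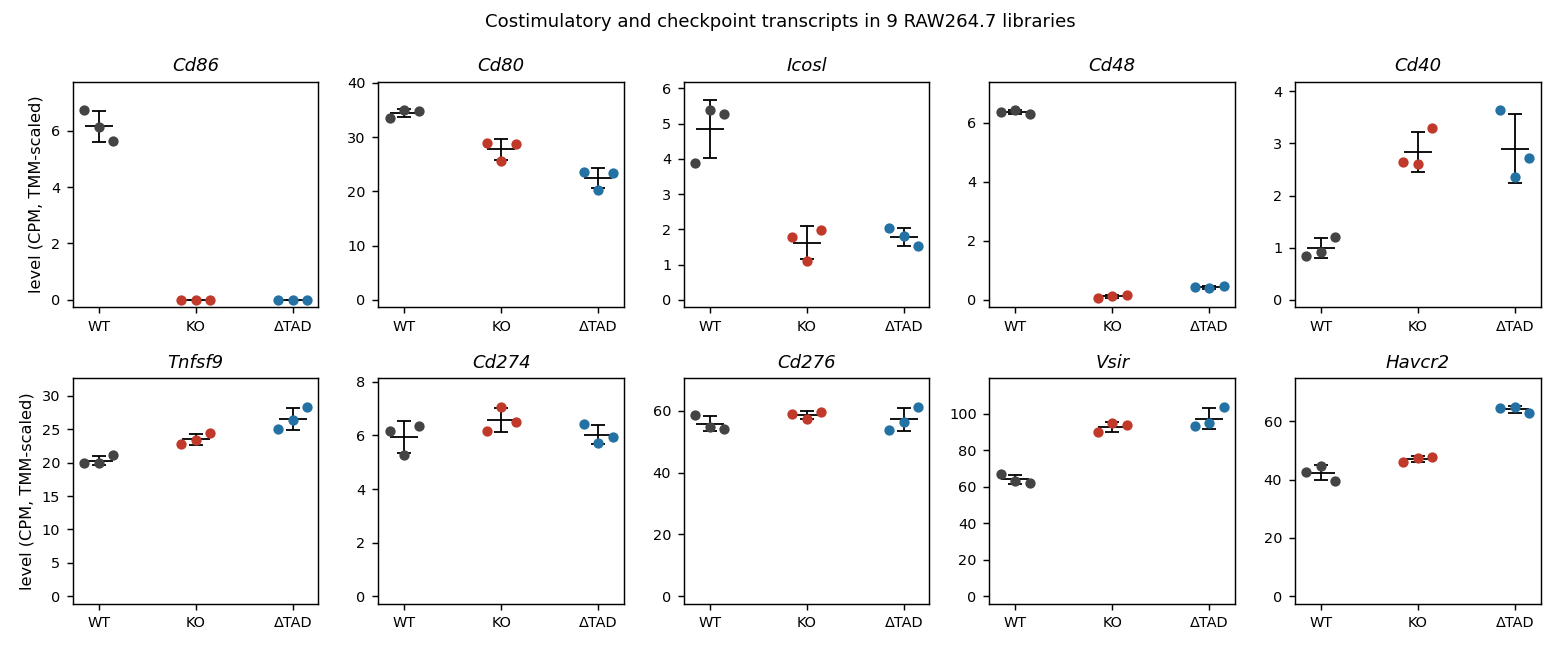
Level of each of the 10 genes in CPM after TMM scaling, with 1 point per library (wild-type grey, knock-out red, ΔTAD blue) and black bars for the mean ± SD of 3 libraries; every axis starts at 0. Cd86 sits at 0 in all 6 edited libraries, Cd48 at 0.476 CPM or less, and Cd274 and Cd276 overlap across the 3 genotypes.

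Cd48 (ENSMUSG00000015355, chr1:171682009-171705258, plus strand), a GPI-anchored SLAM family ligand of CD2 and CD244, was the other gene near zero. Wild-type libraries held it at a narrow 6.38, 6.42 and 6.30 CPM, 343 counts in all. It had 1, 2 and 3 counts in knock-out and 6, 8 and 10 counts in ΔTAD libraries. Every knock-out library was thus at or under the floor, and every ΔTAD library lay above it and far below wild-type. Wild-type exceeded knock-out by a ratio of 56.4, with a 95% exact counting interval of 25.7 to 155, and in ΔTAD the log2 fold change was -3.88 (SE 0.216).

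The difference in Cd48 between the edited lines rests on 6 against 24 counts. The ratio of ΔTAD to knock-out was 3.79 (exact counting interval 1.51 to 11.3), and the groups did not overlap. The gene was called in this comparison, but as it passed the filter through wild-type alone, no p-value is given. The call was lost under 6 of 15 alternatives, among them the leaving out of knock-out replicate 1, knock-out replicate 2, ΔTAD replicate 1 or ΔTAD replicate 3, and the model of only the edited genotypes left the gene out. The upstream stretch of Cd48 shown above lies for 239 of its 250 bases in an exon of A630035G10Rik, a noncoding gene on the opposite strand, which had 1, 2 and 1 counts in wild-type libraries and 0 in the 6 edited ones, too few to compare.

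Cd40 and Tnfsf9, both of the TNF receptor and ligand families, were higher in the edited lines. Cd40 (ENSMUSG00000017652, chr2:165055627-165072948, plus strand), the receptor of the T cell's CD40 ligand, had 17, 16 and 20 counts in wild-type libraries. The knock-out libraries had 50, 43 and 58 counts and the ΔTAD libraries 52, 49 and 57. No edited library overlapped wild-type, and the edited groups overlapped each other. The log2 fold change against wild-type was 1.52 in both knock-out (SE 0.238) and ΔTAD (SE 0.237), from 0.995 ± 0.191 CPM to 2.84 ± 0.387 and 2.90 ± 0.663 CPM, and it was 1.33 in ΔTAD without ΔTAD replicate 1. The edited lines did not differ beyond their spread (log2 difference 0.00, SE 0.190, edgeR adjusted p = 0.992).

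Tnfsf9 (ENSMUSG00000035678, chr17:57105325-57107757, plus strand), the 4-1BB ligand, stood at 19.9, 19.9 and 21.1 CPM in wild-type, 22.7, 23.4 and 24.4 CPM in knock-out and 25.0, 26.3 and 28.4 CPM in ΔTAD libraries. The 3 groups did not overlap, in rising order from wild-type through knock-out to ΔTAD. Log2 fold changes against wild-type were 0.21 (SE 0.0683) and 0.40 (SE 0.0666), and the difference of knock-out from ΔTAD was -0.18 (SE 0.0652) with an edgeR adjusted p of 0.0249, which misses the threshold. Chromosome 17 as a whole moved with it: its 745 tested genes had medians of 0.485 (knock-out) and 0.501 (ΔTAD) on the log2 scale, and 33 and 31 of the 36 tested genes within 1 Mb of Tnfsf9 were called higher. The change of Tnfsf9 was smaller than the median of its chromosome in either line, and the part of this chromosome-wide shift in it was not tested. The span of Tnfsf9 is also overlapped on the other strand by Gm11110, a noncoding gene with 212 to 316 counts per library. Overlap of their exons was not checked and the strand setting of the counting is not given, so how far their reads can be told apart is not known.

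The inhibitory ligands Cd274 and Cd276 were at about the same level everywhere. Cd274 (ENSMUSG00000016496, chr19:29367455-29388095, plus strand) was at 5.94 ± 0.586 CPM in wild-type cells and at 6.59 ± 0.454 and 6.03 ± 0.368 in knock-out and ΔTAD cells, with single libraries between 5.27 and 7.07 CPM. Its log2 fold changes were 0.15 (SE 0.118) and 0.01 (SE 0.119). Cd276 (ENSMUSG00000035914, chr9:58524298-58555437, minus strand), known as B7-H3, was at 55.8 ± 2.45, 58.6 ± 1.27 and 57.2 ± 3.76 CPM, with changes of 0.07 (SE 0.0470) and 0.04 (SE 0.0469). The groups overlapped in every comparison for both genes, and the edited lines differed by 0.13 (SE 0.117, edgeR adjusted p = 0.378) and 0.03 (SE 0.0466, edgeR adjusted p = 0.627). The ΔTAD changes of both turned negative when libraries were scaled by size alone, -0.069 and -0.048, so no direction is given for them.

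Vsir (ENSMUSG00000020101, chr10:60346851-60372684, plus strand), which encodes the inhibitory ligand VISTA, was higher in both edited lines. Its wild-type libraries had 67.0, 63.2 and 62.3 CPM, the knock-out libraries 89.8, 95.2 and 93.7 CPM and the ΔTAD libraries 93.5, 94.8 and 103.8 CPM. Each edited library was above each wild-type library, by 0.53 (SE 0.0417) in knock-out and 0.60 (SE 0.0413) in ΔTAD on the log2 scale, and the edited groups overlapped (difference -0.07, SE 0.0395, edgeR adjusted p = 0.144). Scaling by library size alone put that difference at 0.00146.

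Havcr2 (ENSMUSG00000020399, chr11:46454935-46481255, plus strand) separated the edited lines most clearly. It was at 42.6, 44.6 and 39.6 CPM in wild-type, 46.0, 47.4 and 47.6 CPM in knock-out and 64.4, 64.9 and 62.8 CPM in ΔTAD libraries. The ΔTAD libraries stood well above the rest, and the knock-out libraries just above wild-type. The log2 fold change against wild-type was 0.60 (SE 0.0455) in ΔTAD and 0.15 (SE 0.0476) in knock-out, and knock-out differed from ΔTAD by -0.45 (SE 0.0448, edgeR adjusted p = 2.13e-08). That difference passed the threshold under every alternative run, with values from -0.47 to -0.37.

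**Figure D2:**
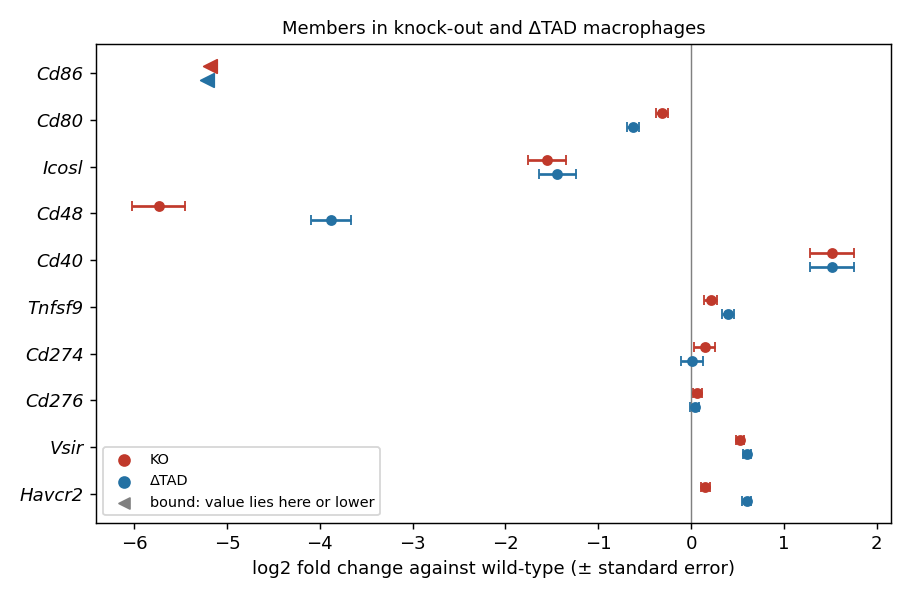
Log2 fold change of each gene in knock-out (red) and ΔTAD (blue) against wild-type macrophages, with bars for the standard error from edgeR; the triangles of Cd86 are bounds against a floor of 3 counts per library. Cd86 and Cd48 lie far to the left in both lines, Cd40 to the right at 1.52, and the checkpoint ligands Cd274 and Cd276 at 0.15 or less.

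Against wild-type, 7 of the 10 members were called in knock-out (3 higher, 4 lower) and 8 in ΔTAD (4 higher, 4 lower), these being all but Cd274, Cd276 and, in knock-out, Tnfsf9. Among all 14312 genes 45.2% were called in knock-out, 22.8% higher and 22.4% lower, and 49.7% in ΔTAD, 26.3% higher and 23.4% lower, at an edgeR adjusted p-value under 0.01. In both comparisons 8 members had groups that did not overlap, as had 59.7% of all genes in knock-out and 63.1% in ΔTAD. Since the members were selected on these comparisons, nothing is read from the counts. The median log2 fold change of the members was 0.11 in knock-out and 0.03 in ΔTAD, beside -0.00105 and -0.00332 over all genes, because members that were lower and higher offset each other. The knock-out call of Havcr2 was lost under 13 of 16 alternatives, among them the leaving out of any 1 library other than wild-type replicate 2.

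Between the edited lines 3 of the 10 members were called, Cd80 higher in knock-out and Cd48 and Havcr2 lower, and without Cd48, which entered the test only through its wild-type counts and lost its call under 6 of 15 alternatives, there were 2. Of all genes 33.0% were called in this comparison, 13.9% higher and 19.1% lower in knock-out, so the members' share was near that of all genes. The groups of 4 members did not overlap, beside 52.8% of all genes. The median difference of the members was -0.04 beside -0.03 over all genes. With libraries scaled by size alone, the share of calls that were higher moved from 42.1% to 69.0%, and from 52.9% to 39.6% in ΔTAD against wild-type, while the direction of the 3 called members held. Cd48 then missed the threshold, as it did without ΔTAD replicate 1.

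Per kilobase of exon, the order of the members differed in part between the genotypes. Tnfsf9, Havcr2, Cd276 and Vsir stood above Cd80 in each genotype. In wild-type cells Tnfsf9 (15.7 ± 0.514 CPM per kb), Havcr2 (15.5 ± 0.929) and Cd276 (15.3 ± 0.670) led and overlapped, ahead of Vsir (12.8 ± 0.498), Cd80 (9.31 ± 0.201) and Cd48 (5.36 ± 0.0541). Cd86 (1.68 ± 0.150) and Cd274 (1.64 ± 0.162) overlapped, above Icosl (1.05 ± 0.180) and Cd40 (0.292 ± 0.0562). In knock-out cells Vsir (18.5 ± 0.548) and Tnfsf9 (18.2 ± 0.638) led and overlapped, and Cd48 (0.0963 ± 0.0495) and Cd86 were last. In ΔTAD cells Havcr2 led alone (23.5 ± 0.404), above Tnfsf9 (20.6 ± 1.30) and Vsir (19.4 ± 1.12), which overlapped. Cd40 moved from the last place in wild-type to the seventh in both edited lines, above Icosl, and in ΔTAD Icosl (0.388 ± 0.0551) and Cd48 (0.359 ± 0.0389) overlapped. Summed over the 10 members, the level was 237 to 246 CPM in wild-type, 257 to 266 in knock-out and 273 to 290 in ΔTAD, ranges that do not overlap.

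The genes beside Cd86 had no common shift. Chromosome 16 holds Cd86 and also Cebpd, the edited gene, at 15887286-15891031, and a role of this shared chromosome was not tested. On the log2 scale the 437 tested genes of chromosome 16 had medians of -0.00606 (knock-out) and 0.00598 (ΔTAD) against wild-type, and the 19 within 1 Mb of Cd86 had medians of -0.0101 and 0.00598, 2 and 4 of them called lower and 4 and 6 higher. The nearest tested neighbours, Iqcb1 at 162 kb and Golgb1 at 209 kb, were at 8.19 ± 1.09, 9.89 ± 0.605 and 8.84 ± 1.01 CPM and at 112 ± 1.98, 144 ± 5.45 and 146 ± 2.48 CPM in wild-type, knock-out and ΔTAD. On the other side Gm5483, at 416 kb, fell from 3.43 ± 0.211 CPM to 1.06 ± 0.450 in knock-out (log2 fold change -1.69, SE 0.245, edgeR adjusted p = 2.23e-06) and was at 0.118 ± 0.0833 in ΔTAD. Cd80, also on chromosome 16, had Timmdc1 at 2.01 kb and Adprh at 2.86 kb, which fell in knock-out by -0.21 (SE 0.0528, edgeR adjusted p = 0.00133) and -0.19 (SE 0.0416, edgeR adjusted p = 0.000457) on the log2 scale and did not pass the test in ΔTAD. In ΔTAD, Cox17, the farthest of the 6 nearest tested neighbours (-0.53, SE 0.0586, edgeR adjusted p = 2.61e-08), Pla1a at 22.4 kb (-0.37, SE 0.0565, edgeR adjusted p = 3.59e-06) and Poglut1 at 28.8 kb (-0.16, SE 0.0385, edgeR adjusted p = 0.00073) fell. Poglut1 fell in knock-out too (-0.22, SE 0.0390, edgeR adjusted p = 2.81e-05), and Tmem39a at 62.4 kb did not pass in either line.

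Cd48 lies among its SLAM family relatives, of which Ly9 and Cd84 were higher in ΔTAD cells while Slamf8, chosen after its values were seen, fell in both edited lines (-1.31 and -0.82). Ly9, a homophilic SLAM receptor 74.6 kb away, was at 39.1 ± 2.07 CPM in wild-type cells and 39.9 ± 2.83 in knock-out cells but at 110 ± 2.32 in ΔTAD cells, a rise of 1.49 in ΔTAD (SE 0.0452, edgeR adjusted p = 6.15e-19). Cd84, another SLAM receptor at 134 kb, had 0.513 ± 0.130, 1.19 ± 0.305 and 7.15 ± 0.993 CPM. It rose by 1.20 (SE 0.325) in knock-out and 3.75 (SE 0.224) in ΔTAD. As Cd84 passed the filter through the edited lines alone, no p-value against wild-type is given. The knock-out call of Cd84 was lost without wild-type replicate 3 (1.02), knock-out replicate 1 (1.05) or knock-out replicate 3 (1.13). Tma7-ps, a pseudogene only 5.83 kb away, was at 2.06 ± 0.227, 1.77 ± 0.380 and 2.00 ± 0.777 CPM and did not pass the test. B930036N10Rik, a noncoding gene at 178 kb, fell by -0.987 (SE 0.17, edgeR adjusted p = 2.43e-05) in knock-out and -0.795 (SE 0.164, edgeR adjusted p = 0.00019) in ΔTAD. F11r, which encodes a junctional adhesion molecule, fell too and was named after its values were seen. It lies 217 kb away and had 13, 16 and 19 counts in wild-type, 0 in each knock-out and 0, 1 and 0 in ΔTAD libraries. Over the 46 tested genes within 1 Mb of Cd48 the median log2 fold changes were -0.0823 in knock-out and 0.0281 in ΔTAD. In knock-out 8 were called lower and 11 higher (41.3% called, beside 45.2% of all genes). In ΔTAD 10 were called lower and 15 higher (54.3%, beside 49.7%).

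**Figure D3:**
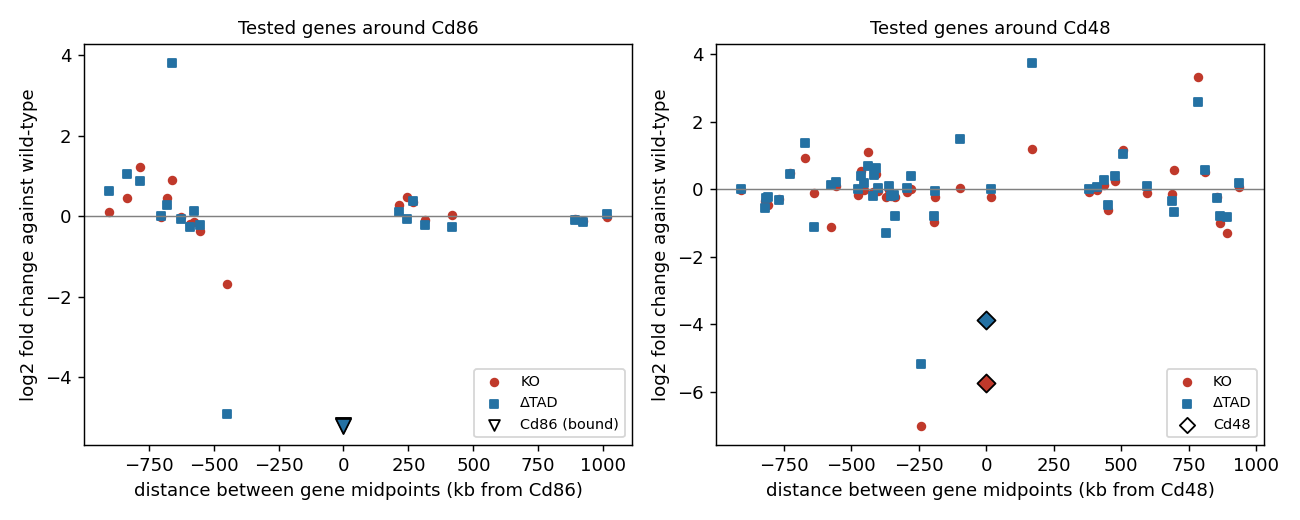
Fitted log2 fold change against wild-type of the tested genes around Cd86 (left) and Cd48 (right) by distance between gene midpoints in kb, in knock-out (red circles) and ΔTAD (blue squares); the outlined symbols at 0 kb are the member itself, for Cd86 as a bound on which both lines coincide. Neighbours scatter on both sides of 0, with medians of -0.0101 and 0.00598 around Cd86 and -0.0823 and 0.0281 around Cd48.

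The genes most like Cd86 across the 9 libraries, by Pearson's r of log2 CPM, were Emp2 (r = 0.9994), Ppm1a (r = 0.9984) and Hsp90b1 (r = 0.9983), and 91 tested genes exceeded 0.99. Emp2, an epithelial membrane protein on the same chromosome, went from 34.7 CPM to 0.113 and 0.110, whereas Ppm1a, a phosphatase, went from 124 to 84.6 and 86.1 CPM. For Cd48 they were Gja1 (r = 0.9965), Ppp2r5c (r = 0.9965) and Cct6a (r = 0.9963), with 40 genes above 0.99. Gja1, which encodes connexin 43, went from 13.3 CPM to 0.209 in knock-out and 0.568 in ΔTAD. These values describe 3 group levels rather than 9 independent points, and Spearman's rho named none of the same genes.

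Of 35 other costimulatory and checkpoint ligands, 15 were tested and another 15 never exceeded 3 counts, Pdcd1lg2 (PD-L2), Tnfsf4 (OX40 ligand) and Cd70 among them. In knock-out 6 rose and 6 fell, beside 45.2% of all genes called, and in ΔTAD 8 rose and 6 fell, beside 49.7%. Slamf9, a macrophage SLAM receptor, rose from 0.185 ± 0.0132 CPM to 1.91 ± 0.246 in knock-out (log2 fold change 3.32, SE 0.347) and 1.14 ± 0.179 in ΔTAD (2.59, SE 0.383). Nectin2, a ligand of TIGIT and CD226, rose by 1.84 (SE 0.122) and 2.19. Igsf11, a ligand of VISTA, fell from 1.78 ± 0.0759 CPM to 0.171 ± 0.0652 in knock-out (-3.34, SE 0.383), and in ΔTAD it was at 1, 0 and 0 counts. As Igsf11 passed the filter through wild-type alone and Slamf9 through the edited lines alone, no p-value is given for either. Between the edited lines 1 ligand was higher and 8 were lower in knock-out, beside 33.0% of all genes called, led by Cd84 (-2.55, SE 0.189), Ly9 (-1.46, SE 0.0451) and Nectin3 (-1.42, SE 0.105), whose edgeR adjusted p-values were 9.67e-11, 3.74e-18 and 8.95e-11. The call of Nectin2 between the edited lines was lost when libraries were scaled by size alone, with DESeq2 and without knock-out replicate 2, knock-out replicate 3 or ΔTAD replicate 3, and that of Cd47, the ligand of SIRPA, named after its values were seen, without ΔTAD replicate 1 or knock-out replicate 1, with DESeq2 and with library size alone.

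Of 23 counter-receptors, which T and NK cells mostly carry, 6 were tested and 14 never exceeded 3 counts. Cd28, Icos, Cd40lg and Btla had 0 counts in every library and Ctla4 at most 1. In each edited line 3 of the 6 rose and 0 fell, beside 45.2% of all genes called in knock-out and 49.7% in ΔTAD. The share called was thus near that of all genes. Receptors with too few counts were not tested and could not be called. The 3 that rose in both edited lines are receptors that macrophages themselves carry: Selplg, which encodes PSGL-1, by 0.91 (SE 0.0882, edgeR adjusted p = 3.24e-09) and 1.31 (SE 0.0842, edgeR adjusted p = 1.38e-12), Sirpa, the receptor of CD47, by 0.24 (SE 0.0335, edgeR adjusted p = 1.19e-06) and 0.60 (SE 0.0336, edgeR adjusted p = 1.1e-13), and Cd200r1 by 0.50 and 0.47. The calls of Cd200r1 rest on few libraries: in knock-out (edgeR adjusted p = 0.00224) it was lost without wild-type replicate 1, wild-type replicate 3 or knock-out replicate 1, with values down to 0.41, and in ΔTAD (edgeR adjusted p = 0.00374) without wild-type replicate 1 or 3 or ΔTAD replicate 1 or 2, down to 0.38, and with DESeq2 or library size scaling. Selplg (-0.40) and Sirpa (-0.35) were lower in knock-out than in ΔTAD, with edgeR adjusted p-values of 0.000136 and 7.29e-09.

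Genes that carry the CD40 signal, induce Cd274 or turn these proteins over were more often called higher than lower in the edited lines. Like the other lists, this one was chosen with earlier results of these data known, so its split is a description. Of 25 such genes 24 were tested. In knock-out 15 rose and 1 fell, Traf3, beside 22.8% of all genes called higher and 22.4% called lower. In ΔTAD 14 rose and 2 fell, Traf3 and Traf6, beside 26.3% of all genes called higher and 23.4% called lower. Traf3, a brake on noncanonical NF-κB, fell by 0.56 in knock-out and 0.47 in ΔTAD on the log2 scale. Cd83, which protects CD86 and MHC class II from ubiquitination by MARCH1, rose from 2.76 ± 0.0919 CPM to 15.8 ± 0.846 in knock-out (2.51, SE 0.106, edgeR adjusted p = 4.98e-16) and 21.8 ± 0.529 in ΔTAD (2.97, SE 0.0995, edgeR adjusted p = 4.04e-18). March1 itself had 0 counts in all libraries. Relb, a noncanonical NF-κB subunit, rose by 1.02 (SE 0.103) and 1.41 (SE 0.0977), and Irf1, an interferon-response factor that induces Cd274, rose by 0.86 (SE 0.105) and 1.11 (SE 0.102). Cmtm4, whose product stabilises PD-L1, rose by 0.94 (SE 0.0359) and 0.70 (SE 0.0362). Cmtm6, listed for the same role, did not pass in knock-out (-0.06, SE 0.0524, edgeR adjusted p = 0.314) or ΔTAD (0.04, SE 0.0516, edgeR adjusted p = 0.513). The edgeR adjusted p-values in knock-out and ΔTAD were 6.55e-09 and 5.88e-12 for Relb, 1.79e-07 and 9.96e-10 for Irf1, and 6.83e-17 and 2.22e-14 for Cmtm4.

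Between the edited lines 5 of these genes were higher and 7 lower in knock-out, beside 13.9% and 19.1% of all genes. Map3k14, the kinase NIK of the noncanonical pathway, was 0.93 (SE 0.0723, edgeR adjusted p = 2.28e-10) higher in knock-out, Traf5 was 0.61 (SE 0.107, edgeR adjusted p = 6.19e-05) and Traf1 0.49 (SE 0.117, edgeR adjusted p = 0.0015) higher. The call of Traf1 was lost without knock-out replicate 1 (0.44) or knock-out replicate 3 (0.44). The calls of Nfkb1, Nfkb2, Rela and Ifngr2, lower in knock-out, were lost under scaling by library size alone, as were those of Traf2 and Marchf8 in ΔTAD against wild-type. The call of Nfkb2 was also lost without ΔTAD replicate 1 or knock-out replicate 2. Traf3, Traf6, Cmtm6 and the genes lost under that scaling were named after their values were seen.

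**Figure D4:**
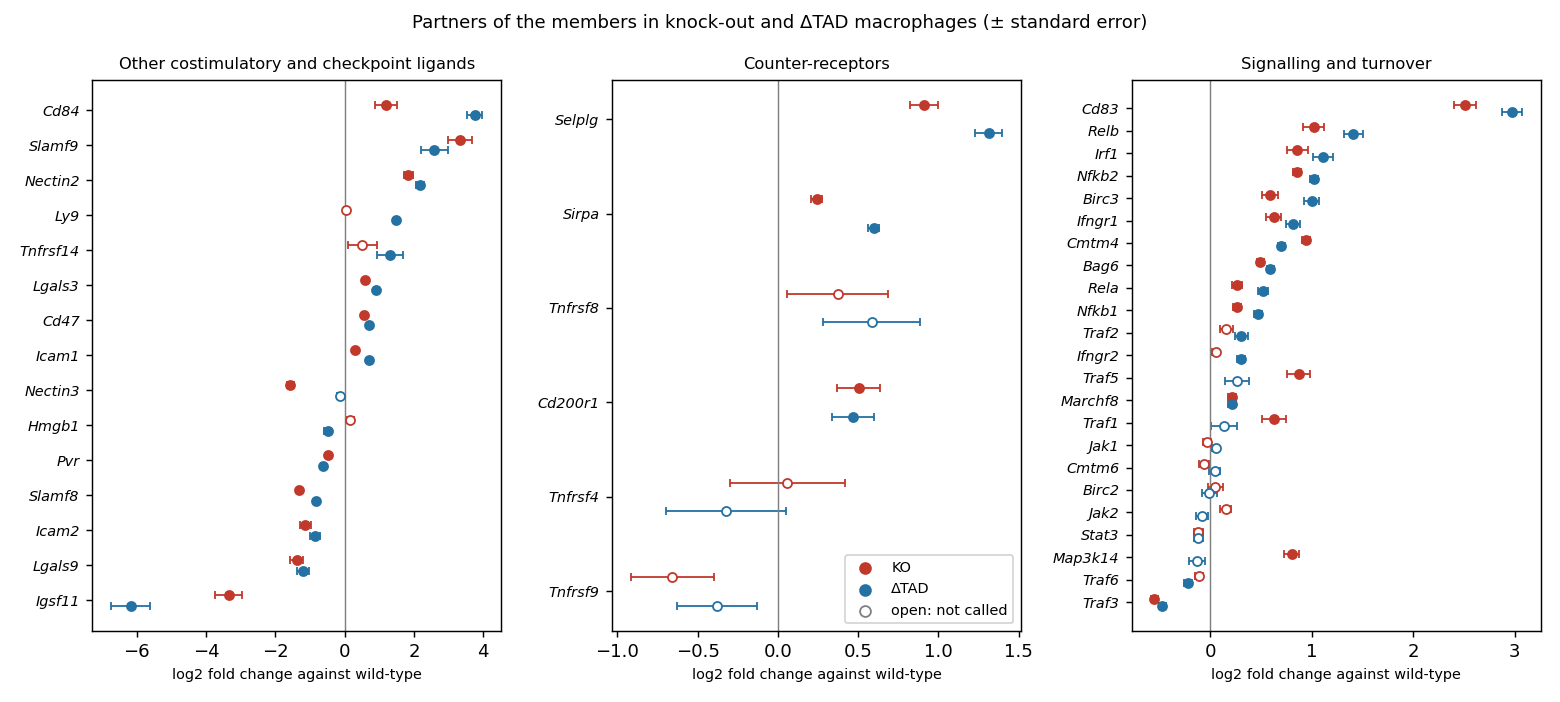
Log2 fold change against wild-type with standard error for tested genes of 3 lists, other ligands (15), counter-receptors (6) and signalling and turnover (23 of the 24), in knock-out (red) and ΔTAD (blue); open circles did not pass an edgeR adjusted p-value of 0.01. Cd83 stands highest among the signalling genes, at 2.51 and 2.97, and Traf3 lowest.

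Markers of other cells that carry these ligands were low or absent. All 8 B cell markers were at or under 3 counts in every library. Of 10 T cell markers Cd3e, Cd3g and Cd8a were at 0 everywhere and 5 never exceeded 3 counts, yet Lck and Bcl11b were present, and the summed level was 15.4 to 17.7 CPM in wild-type, 10.1 to 11.7 in knock-out and 7.83 to 9.38 in ΔTAD. Of 7 dendritic cell markers Flt3 was at 0 and 4 never exceeded 3 counts, and the sum went from 15.9 to 17.5 CPM in wild-type to 7.07 to 9.29 in knock-out and 6.53 to 7.20 in ΔTAD, almost all of it Itgax, which macrophages express too. Of 7 fibroblast markers 6 never exceeded 3 counts, with sums of 1.27 to 1.70, 0 to 0.0527 and 0.0960 to 0.210 CPM. The 10 macrophage markers summed to 3280 to 3490 CPM in wild-type, 4380 to 4750 in knock-out and 6890 to 7040 in ΔTAD, a sum in which Lyz2 weighs most. Lyz2 went from 1167 CPM to 2114 in knock-out and 4192 in ΔTAD. In the same order Fcgr1 went from 39.5 CPM to 17.8 and 28.9, and Itgam from 34.35 to 30.65 and 31.12. In wild-type cells the dendritic sum was mostly Itgax, the T cell sum mostly Lck and Bcl11b, and the fibroblast sum mostly Pdgfrb. These sums were lower in the edited lines, as were Cd86, Cd80, Icosl and Cd48. The macrophage sum was higher, as were Cd40, Tnfsf9, Vsir and Havcr2, but not every marker in it was. All libraries came from the same cultured line, and any link of these markers to the levels of the members was not tested. In bulk RNA, fewer cells that express a gene cannot be told apart from less RNA per cell.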

How the data were processed

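The data are RNA-seq libraries of resting RAW264.7 macrophages, 3 per genotype. After ribosomal RNA depletion and single-end sequencing, the authors used Trimmomatic for trimming, HISAT2 for alignment to GRCm38 and HTSeq for counting on Ensembl genes. They deposited 1 list of raw counts per library, with 55487 gene identifiers and 5 tally lines that were left out here. The strand and overlap settings of the counting are not given in the sources used here. Between 46.65% and 53.23% of a library's records fell on genes, and 11.78% to 16.28% were not unique.

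These counts went into edgeR 4.0.16 (R 4.3.3), with filterByExpr at a minimum count of 10 and a minimum total of 15, TMM scaling and a single quasi-likelihood fit of the 3 genotypes over the 9 libraries. A gene was called at a Benjamini-Hochberg adjusted p-value below 0.01, the study's threshold, adjusted over all 14312 genes tested. Levels between genes were compared only per kilobase of merged GENCODE exons, and symbols and positions come from GENCODE on GRCm38 (55141 identifiers matched). Ratios of small counts have 95% exact intervals for counting error only. The steps were tested on simulated data.

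The 10 members and the gene lists were chosen with earlier results of these data known. Named were the members, Cebpd, in each list and comparison the 3 genes of largest absolute log2 fold change among called genes without overlap whose higher group averaged 1 CPM or more, the 3 nearest tested genes on each side of Cd86, Cd80 and Cd48 within 1 Mb, of which the text gives a part, and the 3 genes most alike to Cd86 and to Cd48. Any other gene was named after its values were seen. Genotypes and replicate numbers come from the donor labels, and titles number the last libraries 4 and 5. As alternatives, DESeq2 1.42.0 and limma-voom (limma 3.58.1) replaced the test, and other settings of scaling, filter, threshold and samples, the replicate number as a block and the leaving out of each library were tried. The result of 1 gene of the signalling and turnover list is counted but not reported here by name.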

Additional observations from a re-analysis of the deposited data

How the results depend on the processing

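Where calls also needed a log2 fold change of 1 or more in size, the members called were 4 in knock-out against wild-type, 4 in ΔTAD against wild-type and 1 in knock-out against ΔTAD. The counter-receptors called were then 0, 1 and 0, the signalling and turnover genes 2, 5 and 0, and the other ligands 7 in ΔTAD against wild-type and 3 in knock-out against ΔTAD. The share of all genes that pass this cut is not given here, so nothing is read from these counts. Every other count of calls stayed within 1.5 times its value under the alternatives run. Leaving out 1 library in turn gave 6 to 7 members in knock-out, 8 in ΔTAD and 2 to 3 between the edited lines.

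Changes of sign came only in differences that had not been called. In ΔTAD against wild-type, scaling by library size alone gave -0.069 for Cd274 and -0.048 for Cd276, and leaving out 1 library gave -0.059 to 0.061 and -0.019 to 0.078. In knock-out against ΔTAD, Cd40 was at -5.36e-05 with DESeq2, at -0.015 with every gene of at least 1 count, at -0.0062 with the replicate block and at -0.14 to 0.19 with 1 library left out, Icosl at -0.28 to 0.10 with 1 library left out, and Vsir at 0.00146 with library size alone. The cause was not tested. The call of Cd48 between the edited lines was lost with DESeq2 (adjusted p = 0.0170) and could not be made in the model of only those genotypes, where Cd48 failed the filter. Tnfsf9 in knock-out was called with limma-voom, in the model of only those genotypes and without ΔTAD replicate 1. In a 0.5 Mb window the median of the genes around Cd86 was 0.151 in knock-out and -0.147 in ΔTAD, over 6 genes.

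The replicate numbers share nothing in the labels, and deviations of libraries with the same number correlated at -0.072 to 0.020 over 9 pairs. With the replicate block the genes called were 6279, 6900 and 4465 in place of 6468, 7115 and 4730, and the Havcr2 call in knock-out was the one call of a member lost. Depth limits Cd86 and Cd48 in the edited lines, at 0 to 10 counts per library, and the calls of Cd40 and Icosl rest on 16 to 93 counts per library.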
